A study of Cornus officinalis with 7 samples.

Results

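Young stem and young leaf, the growing vegetative organs of *Cornus officinalis*, were compared by their gene expression. *C. officinalis* is an Asian dogwood whose fruit is used as a medicine. Of the 304371 unigenes (assembled transcript sequences) in the expression table, 112853 (37.1%) had an FPKM of at least 1 in either organ and were compared. FPKM is the number of sequenced fragments per kilobase of transcript, scaled to the mapped fragments of the library. The study sequenced polyadenylated RNA of 7 tissues, with 1 strand-specific library each, and 2 of the 7 libraries enter the comparison. The other libraries are mature leaf, mature stem, pericarp, seed and inflorescence, and they are used here only to show levels. All 7 tissues carry the same plant material identifier, an age of 12 years and no treatment, and they were grown outdoors in a university medicinal garden. How many plants stand behind each library is not given in the sources used here.

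With 1 library per organ no difference has a replicate check, so no test was made, no p-value is given, and every difference below describes a pair of libraries. The difference between the organs is given as log2((young stem FPKM + 1)/(young leaf FPKM + 1)), called the log2 ratio, which is positive where young stem was higher. A unigene or a sum was called higher in an organ when the FPKM + 1 values differed by at least 2-fold, a log2 ratio of at least 1 in size. The constant of 1 makes the log2 ratio of low unigenes smaller than the plain ratio of their FPKM values, and such plain ratios are named as folds. The labels of the organs could not be checked against leaf or stem markers, because the annotation used here names only pathway enzymes and cytochrome P450s. Fewer cells of a type and less RNA per cell cannot be told apart in tissue RNA.

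Specialized metabolites of 3 classes mark the species, and their pathways start from different parts of primary metabolism. Triterpenoids such as ursolic acid are made from farnesyl diphosphate through squalene, which is oxidized, folded into ring systems by oxidosqualene cyclases and then decorated by cytochrome P450s. Iridoids such as loganin and morroniside start from geranyl diphosphate, which is turned into geraniol and then oxidized, cyclized, glucosylated and methylated. Gallotannins are esters of gallic acid with glucose, and gallic acid branches off the shikimate pathway. Cytochrome P450s, a large family of haem oxygenases, act in the triterpenoid and the iridoid routes and in many other plant pathways.

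More unigenes reached an FPKM of 1 in the young stem library, and the young leaf library held more of its expression in a few very abundant ones. An FPKM of at least 1 was reached by 90086 unigenes in young stem and by 71545 in young leaf. Of the compared unigenes, 48778 (43.2%) reached it in both organs, 41308 in young stem alone and 22767 in young leaf alone. Young stem was higher for 34637 unigenes (30.7% of those compared) and young leaf for 19832 (17.6%), while 58384 (51.7%) lay within 2-fold. These percentages are the background for the counts of members below. The median log2 ratio of all compared unigenes was 0.38, with quartiles of -0.50 and 1.12. At 4-fold, 4374 unigenes (3.88%) were higher in young stem and 3331 (2.95%) in young leaf.

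**Figure D1:**
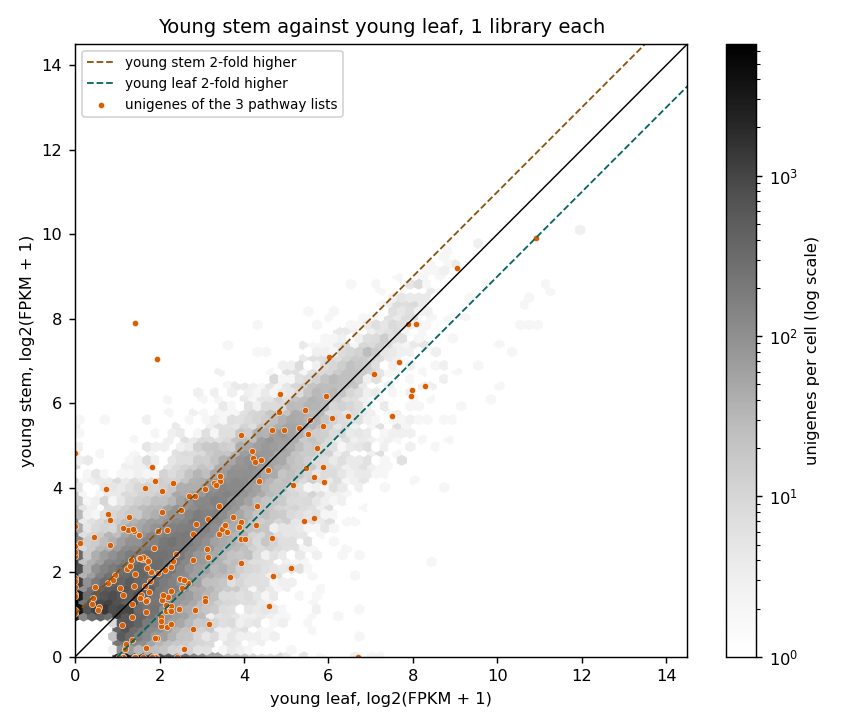
Expression of the 112853 compared unigenes in young leaf (horizontal axis) and young stem (vertical axis), both as log2(FPKM + 1), with 1 library each. The grey shade gives the number of unigenes per hexagonal cell on a log scale, the solid line marks equal values, the dashed lines mark 2-fold differences and the orange points are unigenes of the triterpenoid, iridoid and gallotannin lists. Most unigenes lie at low values in both organs, and at the upper end of the scale the cloud lies below the line of equal values, toward young leaf.

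The side that held more unigenes depended on how strongly they were expressed. Among the 50949 unigenes whose higher value lay between 1 and 2 FPKM, 36.2% were higher in young stem and 17.7% in young leaf. Between 20 and 50 FPKM the shares were close, at 15.9% and 15.1%. Among the 91 unigenes that reached an FPKM of 1000 in either organ, 12 were higher in young stem and 66 (72.5%) in young leaf, with a median log2 ratio of -2.32. The excess of unigenes on the young stem side thus lay among low values. With an FPKM of at least 5 in either organ, 27407 unigenes remained, of which 19.2% were higher in young stem and 16.0% in young leaf. With at least 10, 15848 remained, and the shares were 16.9% and 16.1%. Depth moved with this excess: 1 fragment was worth 1.15 times as much FPKM in young leaf as in young stem, the most frequent ratio among 3303 unigenes detected in exactly these libraries, so young leaf was the shallower library. Its part in the excess was not tested.

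**Figure D2:**
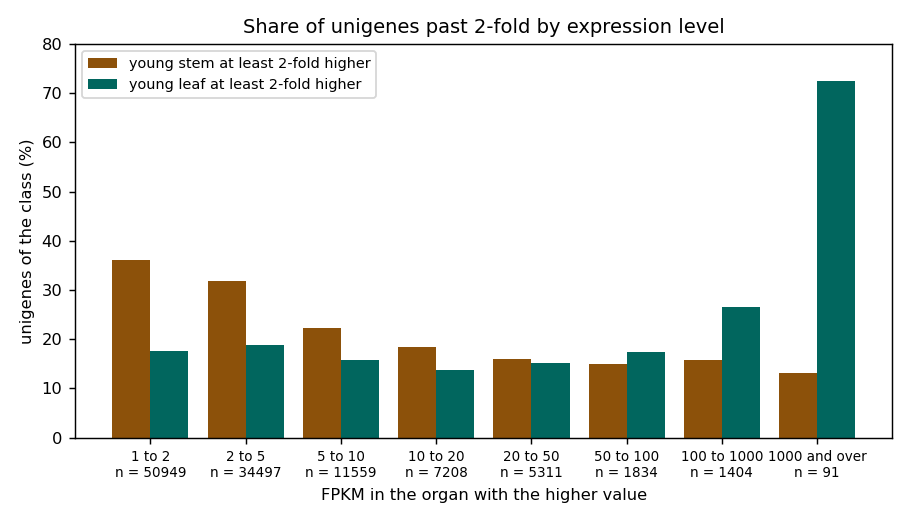
Share of unigenes (%) that were at least 2-fold higher in young stem (brown bars) or in young leaf (green bars), in classes of the FPKM in the organ with the higher value, with the number of unigenes in each class below the axis. The young stem share is 36.2% in the lowest class and 13.2% in the highest, where the young leaf share is 72.5%.

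The most abundant transcripts of young leaf were mostly higher in young leaf, while those of young stem were divided. The 100 unigenes with the highest FPKM took 24.6% of the summed FPKM of young leaf and 13.3% of that of young stem, and 37 unigenes were in both sets. Among the 100 of young leaf, 80 were higher in young leaf and 3 in young stem. Among the 100 of young stem, 31 were higher in young stem and 19 in young leaf. Unigenes called higher in young leaf held 41.2% of the summed FPKM of young leaf and 8.0% of that of young stem. Unigenes called higher in young stem held 25.5% of the young stem sum and 5.10% of the young leaf sum. Because FPKM shares 1 total among all unigenes, a few very abundant transcripts lower the values of the rest of that library, and their part in the differences was not tested. Among the 9847 unigenes that reached an FPKM of 10 in both organs, the median log2 of the plain ratio was 0.19 toward young stem, and differences of this size are therefore not read as differences between the organs.

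The largest differences among abundant unigenes outside the annotated lists reached further than any in the pathways. Unigene211795 reached 2685 FPKM in young leaf against 0.83 in young stem, and Unigene140650 reached 849 against 1.21. Both were higher still in mature leaf, at 4131 and 2485. In the other direction Unigene277721 had 373 in young stem and 0.14 in young leaf. Unigene084123 had 1566 in young stem and 4.55 in young leaf, and its value in pericarp was 6223. The first pair was thus a leaf pair and the second also contained seed or pericarp transcripts, with 95.7 for Unigene277721 and 849 for Unigene084123 in seed. The files do not pair these identifiers with gene names.

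Levels in the remaining tissues were set beside those of the unigenes within 2-fold. Mature stem stands apart from all other libraries and was listed at 0 for 74.3% of the 2677 unigenes with an FPKM of at least 10 that were higher in young stem, and for 81.2% of the 2545 that were higher in young leaf, so it is left aside. The 2545 leaf-side unigenes had a median FPKM of 26.0 in young leaf and 6.0 in young stem. Their median was 29.0 in mature leaf, against 8.21 in pericarp, 3.77 in seed and 8.36 in inflorescence. Mature leaf was the tissue with the highest value for 48.4% of them and young leaf for 38.9%. The leaf side was thus shared between the leaf stages. The 2677 stem-side unigenes had a median of 20.2 in young stem, 5.84 in young leaf and 4.13 in mature leaf. Their medians in the reproductive tissues were 8.02 in pericarp, 9.22 in seed and 10.3 in inflorescence. Young stem itself was highest for 54.3%, which follows in part from the choice of unigenes, then inflorescence with 18.5% and seed with 17.0%. Among the 10626 unigenes within 2-fold at this FPKM, inflorescence was highest for 29.6%, seed for 16.7% and mature leaf for 7.26%. Their medians were 19.7 in inflorescence, 17.5 in seed and 17.2 in pericarp. The young stem side thus had lower medians in the reproductive tissues than the unigenes within 2-fold. Its shares by highest tissue cannot be set against theirs, because its choice raised the young stem share. Set against the young leaf side, its shares were larger: 18.5% against 4.32% for inflorescence, 17.0% against 2.67% for seed and 9.79% against 5.58% for pericarp. Whether it shared more with reproductive tissues is therefore not decided here. Mature leaf stood out on the young leaf side.

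Enzyme names come from the study's annotation by similarity to known proteins, and they were matched to the table by unigene identifier. The triterpenoid list has 182 unigenes, the iridoid list 83 and the gallotannin list 37, all of which were found in the table, and 3 unigenes stand in the first and the second list. The lists name 27 enzymes, of which 23 had a unigene with an FPKM of at least 1 in either organ. Within 9 enzymes some unigenes were higher in young stem and others in young leaf, so the sum of an enzyme and its single unigenes are both given. In 14 of these 23 enzymes the same unigene was the most abundant in both organs. The sums of 3 enzymes were higher in young stem, namely lupeol synthase, amyrin oxidase and geraniol synthase. The sums of 5 were higher in young leaf, namely geraniol 10-hydroxylase, 7-deoxyloganic acid hydroxylase, 3-dehydroquinate dehydratase/shikimate dehydrogenase, gallate glucosyltransferase and an enzyme that the list abbreviates as DH. The remaining sums lay within 2-fold.

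**Figure D3:**
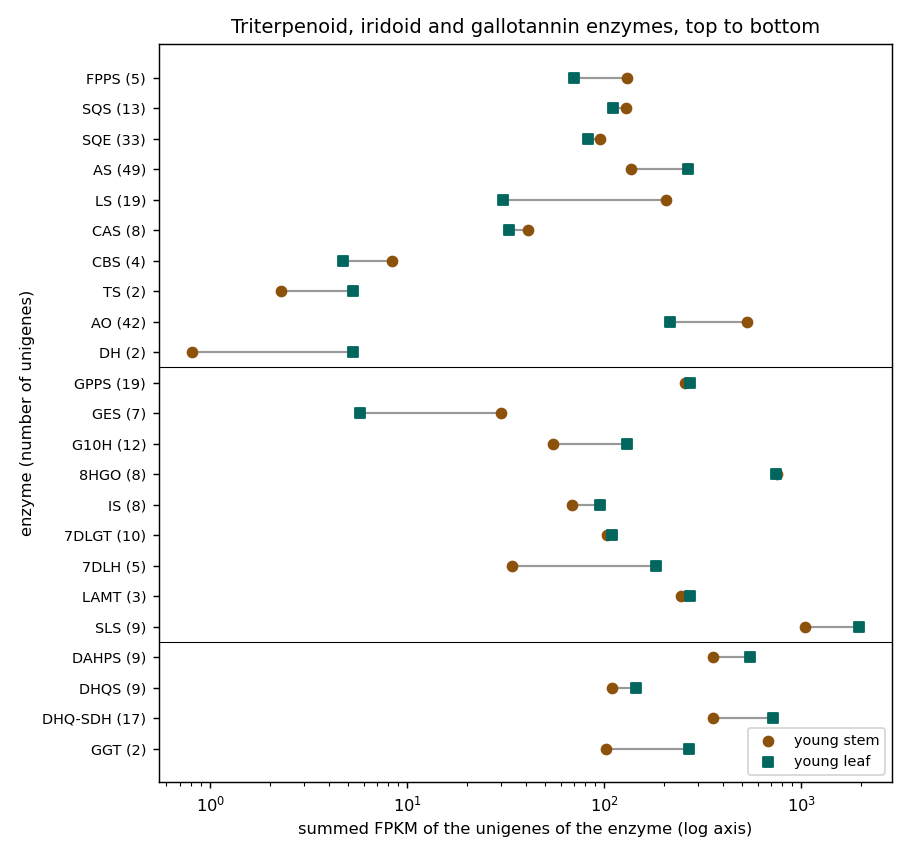
Summed FPKM of all unigenes of each enzyme in young stem (brown circles) and young leaf (green squares) on a log axis, in pathway order from triterpenoid (top) through iridoid (middle) to gallotannin enzymes (bottom), with the number of unigenes in brackets, for the 23 enzymes with a compared unigene. Lupeol synthase (LS), amyrin oxidase (AO) and geraniol synthase (GES) lie to the right in young stem, and 7-deoxyloganic acid hydroxylase (7DLH) and gallate glucosyltransferase (GGT) in young leaf.

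Among the triterpenoid enzymes, the sum of lupeol synthase was higher in young stem, and that of amyrin oxidase was so through 1 unigene. Amyrin synthase unigenes were more often higher in young leaf, but their sum was not called. Of the 182 triterpenoid unigenes, 68 did not reach an FPKM of 1 in either organ. Of the 114 compared, 27 (23.7%) were higher in young stem, 30 (26.3%) were higher in young leaf and 57 lay within 2-fold. The shares of all compared unigenes were 30.7% and 17.6%. The 114 that were compared had a median log2 ratio of -0.16, against 0.38 for all unigenes. With an FPKM of at least 5, 47 remained, 18 (38.3%) higher in young stem and 9 (19.1%) in young leaf, against 19.2% and 16.0% of all. The median was then 0.33, so the sign of the median depended on the filter. The calls toward young leaf were mostly small: with a constant of 5 in place of 1, 12 unigenes were higher in young stem and 4 in young leaf. At 4-fold the counts were 10 and 4. The sum of the list was 1277 FPKM in young stem and 826 in young leaf.

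The sums of the early steps of the route to squalene and its epoxide lay within 2-fold. Farnesyl diphosphate synthase (FPPS), which makes the precursor of squalene, summed to 130 FPKM in young stem and 70.4 in young leaf. Its leading unigene in young stem, Unigene214527, which the iridoid list also names as geranyl diphosphate synthase, had 73.9 and 27.9, a log2 ratio of 1.37. Squalene synthase (SQS), which joins a pair of farnesyl diphosphates, summed to 129 and 111, and none of its 5 compared unigenes was called. Its leading unigene, Unigene193292, had 70.6 in young stem and 60.4 in young leaf, and between 58.8 and 109 in mature leaf, pericarp, seed and inflorescence. Squalene synthase was thus expressed at similar levels in these tissues. Squalene epoxidase (SQE), which adds the oxygen that the cyclases need, summed to 95.5 and 83.0, with 5 of 17 compared unigenes higher in young stem and 2 in young leaf. Its leading unigene, Unigene250497, had 37.7 and 44.5 and was highest in inflorescence at 109.

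Lupeol synthase (LS), the cyclase that makes the lupane skeleton, was one-sided. Its 19 unigenes summed to 206 FPKM in young stem and 30.7 in young leaf, a fold of 6.73, and of 15 compared unigenes 8 were higher in young stem and 0 in young leaf. Unigene126127 carried 63.2% of the young stem sum, with 130 in young stem and 2.84 in young leaf, a log2 ratio of 5.10. Without it the sums were 75.9 and 27.8, still 2.73 times as much in young stem. The next unigenes by log2 ratio went the same way. Unigene113070 had 14.7 in young stem and 0.66 in young leaf, and Unigene008140 had 5.18 against a listed 0 in young leaf. Seed shared the leading unigenes of young stem: Unigene126127 had 195 in seed and 50.4 in pericarp, and Unigene113070 had 30.7 and 7.33. Both leaf stages and inflorescence held between 2.84 and 3.19 of Unigene126127.

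Amyrin synthase (AS), the cyclase that makes the α- and β-amyrin skeletons of ursolic and oleanolic acid, leaned the other way. Its 49 unigenes summed to 136 FPKM in young stem and 266 in young leaf. This difference of 1.96-fold was just under the threshold. Of 33 compared unigenes, 15 were higher in young leaf and 6 in young stem. Both sides included unigenes near the filter, for example at 1.61 in young leaf and at 1.69 in young stem. The leading unigene, Unigene081022, had 21.5 in young stem and 57.6 in young leaf, a log2 ratio of -1.38, and 30.4 in mature leaf. Unigene124083 had 1.29 in young stem and 23.2 in young leaf, and Unigene082304 had 2.78 and 24.8. This pair was higher again in mature leaf, at 37.4 and 37.1, and in pericarp, at 39.3 and 40.4. Unigene110956 showed the same order at lower values, with 0.59 in young stem, 5.87 in young leaf, 9.58 in mature leaf and 9.46 in pericarp. Unigene283042, with 3.68 and 14.1, and Unigene266091, with 1.16 and 6.10, were highest in young leaf. Seed held between 0 and 1.5 of each of these 6 unigenes.

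Amyrin oxidase (AO), which carries out the oxidation of amyrins on the way to the triterpene acids, had its most abundant young stem unigene almost to itself. Unigene173248 was at 239 FPKM in young stem against 1.69 in young leaf, a log2 ratio of 6.48 and the largest among the annotated unigenes toward young stem. It was also high in seed, at 284, and in pericarp, at 35.6, and it had 0.29 in mature leaf and 0.87 in inflorescence. The levels of Unigene173248 and the lupeol synthase Unigene126127 thus had the same order in young stem, young leaf, pericarp and seed. The 42 unigenes of the enzyme summed to 528 FPKM in young stem and 216 in young leaf, and without Unigene173248 to 289 and 214, a fold of 1.35 that was no longer called. Unigene077149, the leading unigene in young leaf, had 137 in young stem and 63.4 in young leaf and was high in inflorescence, at 116. Unigene279898 had 37.0 and 14.2 and was highest in seed, at 173. Unigene014702 had 7.52 in young stem, with all other 6 libraries listed at 0. Over all 30 compared unigenes the enzyme was mixed, with 7 higher in young stem, 8 higher in young leaf and 15 within 2-fold.

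The remaining cyclases were lower and mostly within 2-fold. Cycloartenol synthase (CAS), the entry to plant sterols, summed to 41.1 FPKM in young stem and 32.7 in young leaf. Its leading unigene, Unigene078800, had 40.0 and 24.3. The other 4 compared unigenes were low, 2 of them higher in young leaf. Cucurbitadienol synthase (CBS) summed to 8.32 and 4.70, with Unigene275362 at 4.03 and 1.89. The enzymes that the list abbreviates as TS and DH were at 5.31 and 5.32 in young leaf against 2.30 and 0.81 in young stem, with Unigene244997 (TS) at 0.79 in young stem and 3.09 in young leaf and Unigene054480 (DH) at 0.65 and 3.10. Their full names are not given in the sources used here.

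Of the iridoid pathway, the central oxidation and methylation steps were at like levels in both organs, the sums of the P450s geraniol 10-hydroxylase and 7-deoxyloganic acid hydroxylase were higher in young leaf, and 1 geraniol synthase unigene was found in young stem alone. Of the 83 iridoid unigenes, 29 did not reach an FPKM of 1. Of the 54 compared, 11 (20.4%) were higher in young stem, 15 (27.8%) were higher in young leaf and 28 lay within 2-fold. The shares of all compared unigenes were 30.7% and 17.6%. The median log2 ratio of the 54 compared unigenes was 0.11, against 0.38 for all. With an FPKM of at least 5, 42 remained, 10 (23.8%) higher in young stem and 12 (28.6%) in young leaf, against 19.2% and 16.0% of all. The young stem share was thus below that of all unigenes only with the lower filter. Over the 33 with an FPKM of at least 10 the median was -0.43, against 0.24 for all. The sum of the list was 2582 FPKM in young stem and 3772 in young leaf.

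Geranyl diphosphate synthase (GPPS), which makes the shared precursor of the monoterpenes, had nearly equal sums of 258 FPKM in young stem and 272 in young leaf. The leading unigenes differed. Unigene214527, described above, led in young stem, followed by Unigene080179 with 56.0 against 42.5 in young leaf. This pair is also named farnesyl diphosphate synthase and made up all compared unigenes of that enzyme. The sums of both enzymes thus contain the pair and are not separate results. Without Unigene214527 the sums of geranyl diphosphate synthase were 184 in young stem and 244 in young leaf. In young leaf the leading unigene was Unigene113028, with 58.0 against 16.6 in young stem, followed by Unigene116310 with 49.7 against 18.0. Unigene086967 also had more in young leaf, with 42.2 against 8.34, and was highest in mature leaf at 68.9. Unigene116308 went the other way, with 21.4 in young stem, 2.51 in young leaf and 14.7 in inflorescence. Of the 13 compared unigenes, 3 were higher in young stem and 4 in young leaf, so the equal sums covered a change of unigene.

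Geraniol synthase (GES), which releases geraniol from geranyl diphosphate, summed to 29.8 FPKM in young stem and 5.78 in young leaf. Unigene036779 held 91.2% of the young stem value, with an FPKM of 27.2, and was listed at 0 in all other 6 libraries. Without it the sums were 2.63 and 5.78, which puts young leaf above young stem, with a log2 ratio of -0.90. The call of this enzyme therefore rests on 1 unigene in 1 library. Such unigenes were not rare at low values: 4891 unigenes had an FPKM of at least 1 in young stem and were listed at 0 in every other library, of which 8 reached an FPKM of 10. In young leaf there were 2356 such unigenes, of which 4 reached 10. Of the 549 unigenes in the annotated lists, 5 were found in young stem alone and 0 in young leaf alone, against 4891 and 2356 of all 304371. At an FPKM of at least 1 the listed unigenes thus did not exceed the share of all unigenes on either side. At higher values they did in young stem, though on few unigenes. An FPKM of 5 was reached by 2 listed unigenes against 130 of all, and an FPKM of 10 by 1 against 8. Beside Unigene036779 and the amyrin oxidase Unigene014702, the 5 listed unigenes were the lupeol synthase Unigene012218 at 2.64 and the amyrin synthases Unigene206687 at 1.69 and Unigene041178 at 1.05.

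Geraniol 10-hydroxylase (G10H), the P450 that hydroxylates geraniol, summed to 55.0 FPKM in young stem and 131 in young leaf, a fold of 2.38 toward young leaf. Of its 7 compared unigenes 4 were higher in young leaf and 0 in young stem. Unigene288502 had 21.2 in young stem and 43.1 in young leaf, just under the threshold at a log2 ratio of -0.99, and was highest in mature leaf at 93.5. Unigene278907 had 3.26 and 33.4, a log2 ratio of -3.02, with 44.6 in mature leaf and 40.6 in inflorescence. Unigene134292 had 6.05 and 24.2 and was highest in pericarp, at 92.4. The unigenes of this enzyme that were higher in young leaf thus differed in the other tissues that held them.

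8-hydroxygeraniol oxidoreductase (8HGO), which oxidizes the hydroxylated geraniol to a dialdehyde, was abundant and even. Its sums were 750 FPKM in young stem and 744 in young leaf. Unigene122572 made up most of both, with 591 and 528, and had 483 in mature leaf, 494 in pericarp, 359 in inflorescence and 107 in seed. Unigene035542 was higher in young stem, at 8.87 against 1.41. Iridoid synthase (IS), which reduces and cyclizes the dialdehyde, summed to 68.7 and 94.9, with Unigene241827 at 48.8 and 66.4. The single unigene named iridoid oxidase, Unigene100054, was at 0.73 in young stem and 0.59 in young leaf and was not compared. 7-deoxyloganetic acid glucosyltransferase (7DLGT), which adds the glucose, summed to 103 and 109, with Unigene274540 at 29.9 and 52.2. These steps were thus within 2-fold as sums.

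7-deoxyloganic acid hydroxylase (7DLH), the P450 that makes loganic acid, had the largest difference of any iridoid enzyme. Its 5 unigenes summed to 34.1 FPKM in young stem and 182 in young leaf, a fold of 5.34, with 4 higher in young leaf and 1 in young stem. Unigene276335 was listed at 0 in young stem and had 104 in young leaf and 76.0 in mature leaf, and in the other tissues it had at most 0.22. Without it the sums were 34.1 and 78.3, still 2.30 times as much in young leaf. Unigene120969 had 8.69 in young stem, 49.2 in young leaf and 62.0 in mature leaf, and was highest in pericarp at 264. Unigene110474 had 0.70 in young stem, 8.0 in young leaf and 9.17 in mature leaf. Unigene112559 was the exception, with 17.0 in young stem, 2.69 in young leaf and 0.60 in mature leaf, and between 24.3 and 38.0 in pericarp, seed and inflorescence. Young leaf, pericarp and young stem thus each had another leading unigene of this enzyme.

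The last steps were carried by single, very abundant unigenes. Loganic acid O-methyltransferase (LAMT), which makes loganin, summed to 245 FPKM in young stem and 271 in young leaf, nearly all of it from Unigene220174 with 234 and 269. That unigene was also high in pericarp, at 232, and lower in mature leaf, at 91.7. A second unigene, Unigene106675, had 8.45 in young stem and 0.76 in young leaf. Secologanin synthase (SLS), the P450 that opens the ring of loganin to a secoiridoid in *Catharanthus roseus*, was the most abundant enzyme of the lists. Its sums were 1038 in young stem and 1962 in young leaf, a fold of 1.89. Unigene075938 held 93.0% of the first and 98.3% of the second, with 965 and 1929, just under the threshold of 2-fold. It had 1470 in mature leaf, 140 in inflorescence, 8.62 in pericarp, 3.45 in seed and 0.65 in mature stem, so young stem and both leaf stages held the highest values. Without it the other 8 unigenes summed to 72.8 in young stem and 33.2 in young leaf, a fold of 2.19 in the other direction. Unigene137214 led among them, with 54.3 and 27.3, and was highest in pericarp at 91.7.

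**Figure D4:**
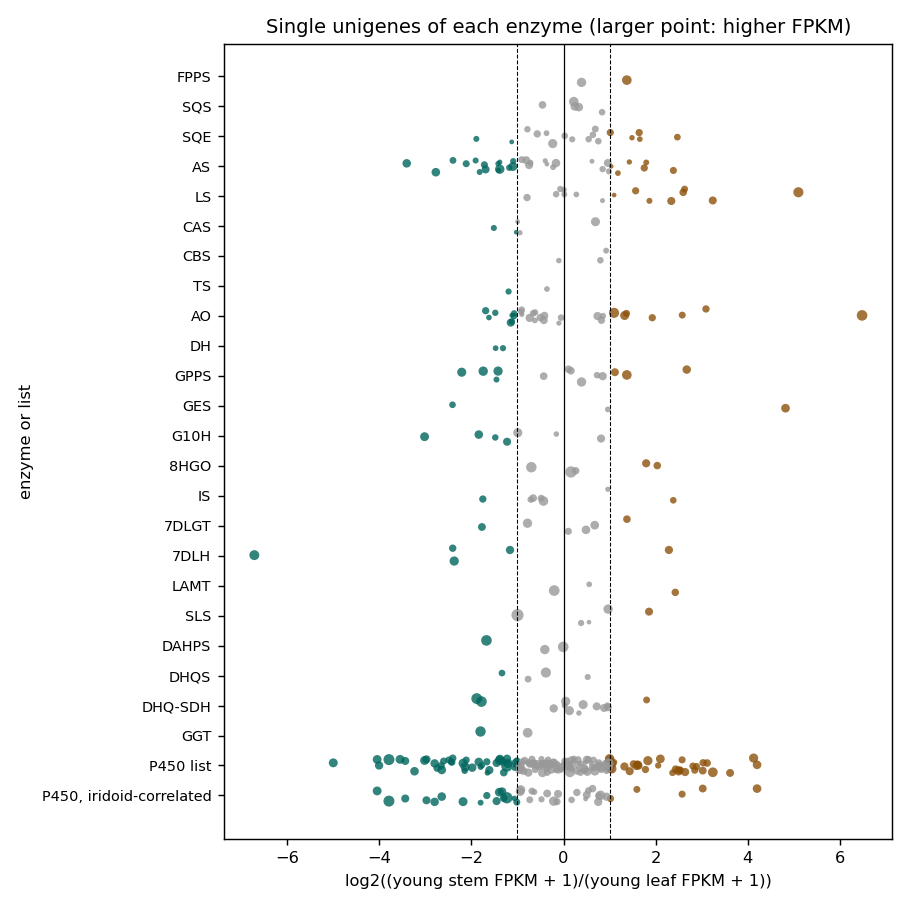
Log2 ratio of each compared unigene of the pathway enzymes and of the cytochrome P450 lists, 1 row per enzyme, where positive values mean higher in young stem, brown and green points are called higher in young stem and young leaf, grey points lie within 2-fold (dashed lines) and larger points have a higher FPKM. Points of lupeol synthase (LS) lie on the young stem side or within 2-fold, and 15 of 33 points of amyrin synthase (AS) and 4 of 5 points of 7-deoxyloganic acid hydroxylase (7DLH) lie on the young leaf side.

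The gallotannin list had a larger sum in young leaf, through its abundant unigenes, but at 1.82-fold the sum was under the threshold. Of its 37 unigenes 15 did not reach an FPKM of 1. Of the 22 compared, 1 (4.55%) was higher in young stem, 5 (22.7%) were higher in young leaf and 16 lay within 2-fold. The shares of all compared unigenes were 30.7% and 17.6%. The list summed to 923 FPKM in young stem and 1679 in young leaf, while the median log2 ratio of the 22 compared unigenes was 0.01, so the difference of the sums did not extend to most unigenes. The 5 unigenes called in young leaf included the most abundant young leaf unigenes of 3 of the 4 enzymes.

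3-Deoxy-D-arabinoheptulosonate 7-phosphate synthase (DAHPS), the entry enzyme of the shikimate pathway, summed to 356 FPKM in young stem and 545 in young leaf. Unigene085665 had 78.4 and 252, a log2 ratio of -1.67, whereas Unigene070183 had 234 and 235. The latter was highest in seed, at 655, and the former was high in mature leaf, at 230. The leaf thus had an abundant unigene of this enzyme beside one that was equal in both organs. 3-dehydroquinate synthase (DHQS), the next enzyme, summed to 109 and 146, with Unigene252093 at 103 and 134. 3-dehydroquinate dehydratase/shikimate dehydrogenase (DHQ-SDH), which makes shikimate and in other plants gallic acid, summed to 356 and 720, a fold of 2.02. This call was lost when the libraries were scaled to equal sums, with a log2 ratio of -0.90, and without the leading unigene, with -0.59. Unigene173474 had 83.2 and 310 and Unigene083007 had 71.6 and 249, with 265 and 218 in mature leaf. These 2 unigenes were the only ones of the 13 compared that were higher in young leaf, and 10 lay within 2-fold. Unigene124963 was higher in young stem, at 5.21 against 0.78.

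Gallate glucosyltransferase (GGT), which joins gallic acid to glucose and so starts the gallotannins, summed to 102 FPKM in young stem and 268 in young leaf, a fold of 2.64. Unigene281485 had 51.1 in young stem, 180 in young leaf and 224 in mature leaf, a log2 ratio of -1.80. The other unigene, Unigene284429, had 50.6 and 87.4, a log2 ratio of -0.78 that alone would not be called, and was highest in inflorescence, at 134. In young stem the pair was nearly equal, and in young leaf Unigene281485 was the more abundant of the pair. The unigenes of DAHPS, DHQ-SDH and GGT that led in young leaf had in common that young leaf and mature leaf were above all other tissues. Unigene070183, which led DAHPS in young stem and had 235 in young leaf, was instead highest in seed, at 655.

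**Figure D5:**
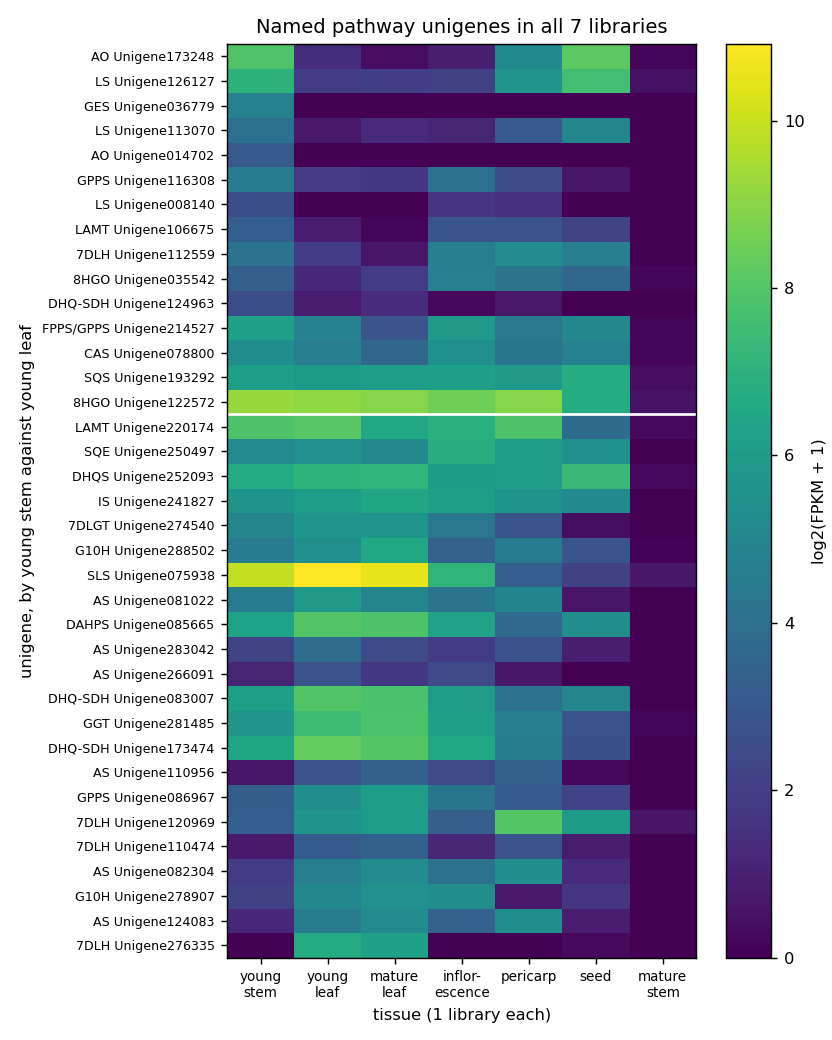
Level of the 37 named pathway unigenes that reached an FPKM of 5 in young stem or young leaf, as log2(FPKM + 1), in each of the 7 libraries, sorted by the log2 ratio of young stem against young leaf, with the white line at equality and 15 unigenes above it. Several unigenes at the top are bright in seed as well as young stem, the unigenes at the bottom are mostly bright in mature leaf as well as young leaf, and mature stem is dark throughout.

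The P450 list holds 262 unigenes that the study kept for their length and an FPKM over 5 in at least 1 tissue, and it was divided between the organs. In neither organ did 111 of them reach an FPKM of 1, of which 72 had their highest value in mature stem. Of the 151 compared, 34 (22.5%) were higher in young stem, 41 (27.2%) were higher in young leaf and 76 lay within 2-fold. Unigenes of the whole table that reached an FPKM of 5 in any tissue are the like background, and of these 20.2% were higher in young stem and 15.9% in young leaf. The median log2 ratio of the P450s was -0.14, with a range from -5.00 to 4.20, and that of the like background was 0.24. The sign of the P450 median depended on the filter: it was 0.02 with an FPKM of at least 5 in either organ and -0.23 with at least 10. For all unigenes the medians were then 0.25 and 0.24. At 4-fold, 19 were higher in young stem and 22 in young leaf. The list overlaps the iridoid list in 12 unigenes, of which 6 are named secologanin synthase, 4 geraniol 10-hydroxylase, 1 7-deoxyloganic acid hydroxylase and 1 iridoid synthase, an enzyme that is not a P450 in other plants. No unigene named amyrin oxidase is in it. Also absent from it are Unigene075938 of secologanin synthase, with 965 in young stem and 1929 in young leaf, and Unigene288502 of geraniol 10-hydroxylase. Unigene276335 and Unigene120969 of 7-deoxyloganic acid hydroxylase are absent as well. The sums and ranks of the P450 list therefore leave these unigenes out.

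Between them the P450s of the list summed to 2243 FPKM in young stem and 2865 in young leaf, and few unigenes carried much of it. The 5 most abundant held 32.0% of the list in young stem and 43.7% in young leaf, and 3 of them were shared. Within the list Unigene288424 was first in both organs, with 261 in young stem and 613 in young leaf, and had 517 in mature leaf. The organs differed in the next place. In young stem it was Unigene080662, with 187 against 94.7 in young leaf, and in young leaf it was Unigene224632, with 396 against 27.7 in young stem and 462 in mature leaf. Unigene224632 was at rank 16 in young stem.

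The P450s with the largest log2 ratios toward young stem were of several kinds by the other tissues that held them. Unigene085521 had 25.8 in young stem, 0.46 in young leaf and 14.2 in inflorescence, and was listed at 0 in the rest. Unigene080604 also joined young stem and inflorescence, with 13.2 in young stem, 0.16 in young leaf, 22.2 in inflorescence and 10.2 in pericarp. Unigene077443 had 45.6 in young stem, 1.67 in young leaf and at most 7.57 elsewhere. Unigene072762 belonged with seed, with 82.4 in young stem, 7.83 in young leaf and 586 in seed. Unigene027501, Unigene094196 and Unigene079453 were close to confined to young stem among the 7 libraries, with 10, 7.16 and 7.05 there and at most 0.84 in any other library. Unigene073699 had 12.5 in young stem, 0.66 in young leaf and at most 2.74 elsewhere. Unigene106754, which the study places in the CYP72 clan, a P450 group that includes secologanin synthase, had 5.57 in young stem, 1.18 in young leaf and at most 0.49 elsewhere. Over all 34 P450s higher in young stem, the highest tissue was young stem for 17, pericarp for 6, seed for 6 and inflorescence for 5.

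On the young leaf side most P450s were shared with mature leaf. Unigene122432 had 0.14 in young stem, 35.4 in young leaf, 89.1 in mature leaf and 39.2 in inflorescence, the largest log2 ratio toward young leaf in the list at -5.00. Unigene114685 had 0.23 in young stem, 18.7 in young leaf and 28.3 in mature leaf. Unigene112452 had 0.47, 14.9 and 13.1, and at most 1.89 in the other tissues. All 3 were thus present at both leaf stages, with at most 0.47 in young stem, and Unigene122432 was also present in inflorescence. Unigene089117 differed, with 1.03 in young stem, 32.5 in young leaf and only 2.73 in mature leaf. Unigene133670 and Unigene078715 had 2.03 and 1.66 in young stem and 34.4 and 24.0 in young leaf, with 73.5 and 52.4 in mature leaf and also 63.3 and 15.6 in pericarp. Of the 41 P450s higher in young leaf, mature leaf was the highest tissue for 27, young leaf for 7, pericarp for 6 and seed for 1.

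The study had picked 45 P450s for the correlation of their expression with iridoid levels over these same 7 tissues, so their tissue pattern is not independent of the choice. Of these 41 were compared, 5 (12.2%) were higher in young stem and 16 (39.0%) in young leaf, with a median log2 ratio of -0.64. For all unigenes that reached an FPKM of 5 in any tissue the shares were 20.2% and 15.9%, and the median was 0.24. They summed to 682 FPKM in young stem and 1534 in young leaf. Among the P450s named above, Unigene085521, Unigene073699 and Unigene106754 of young stem and Unigene089117, Unigene224632 and Unigene112452 of young leaf are in this set. All 5 that were higher in young stem had their highest value there. Of the 16 that were higher in young leaf, the highest tissue was mature leaf for 8, young leaf for 7 and pericarp for 1.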

How the data were processed

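The deposited values are FPKM, which the authors made by trimming the reads with Trimmomatic, joining 3 *de novo* assemblies and removing redundancy with CD-HIT-EST, mapping each library with Bowtie 2 and estimating expression with RSEM. FPKM holds no counts, so depth is unknown except for the ratio of what 1 fragment is worth, read from unigenes above 0 in exactly both libraries. RSEM divides reads between near-identical unigenes, so single values within an enzyme family are uncertain. The table of all tissues and the 7 tissue tables held equal values.

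Unigenes that reached an FPKM of 1 in either organ were compared by log2((stem + 1)/(leaf + 1)) in Python 3.11.15 with numpy 2.4.6 and pandas 2.3.3. Calls at 2-fold are descriptions, with no test. The script was tested on simulated data.

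Enzyme and P450 names, but no values, were taken from the study's supplementary annotation. Metabolite levels were not analysed here. The organs, members and lists were chosen with earlier results of these data known. Named were the leading unigene of each enzyme, up to 5 unigenes per pathway and direction and up to 8 P450s per direction by log2 ratio with an FPKM of at least 5 in the higher organ, Unigene106754, and 2 abundant unigenes per direction outside the lists with an FPKM of at least 100. All other unigenes were named after their values had been seen. Alternatives covered the pseudocount, filter, scaling and fold, and the leading unigene of each enzyme. Leaving out that unigene, and rescaling the enzyme sums by the median ratio, were added after seeing the data.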

Additional observations from a re-analysis of the deposited data

How the results depend on the processing

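With 1 library per organ, no replicate could be left out. No paired analysis was possible because each organ has 1 library and no replicate number. The main counts of 34637 unigenes higher in young stem and 19832 in young leaf became 2674 and 2813 with a pseudocount of 5, 5258 and 4374 with an FPKM of at least 5 in either organ, 2677 and 2545 with at least 10, 11345 and 8261 with a mean of at least 1 over the 7 tissues, and 4374 and 3331 at 4-fold. Young stem took 63.6% of the calls in the main setting, 48.7% with a pseudocount of 5, 51.3% with an FPKM of at least 10, 66.9% with equal library sums, which moved the median log2 ratio by 0.11, and 58.3% with young leaf rescaled by the median ratio, which moved it by -0.18. The median of the triterpenoid list was 0.33 with an FPKM of at least 5. Without the leading unigene, chosen after seeing the data, the log2 ratio of the sum was -0.90 for GES, 0.43 for AO, -2.10 for CAS, 2.01 for LAMT, 1.11 for SLS, -0.59 for DHQ-SDH and -0.78 for GGT. For the leading unigene alone it was -1.38 for AS, 1.37 for FPPS and GPPS, -1.19 for TS, -0.99 for G10H and -1.67 for DAHPS. Equal library sums gave -0.90 for DHQ-SDH. Rescaling by the median ratio gave -1.16 for AS, -1.10 for TS and -1.11 for SLS. Of the 60 named unigenes none changed direction in a called value. With a pseudocount of 5, 6 of them fell below 2-fold. With a pseudocount of 0.1, and likewise after rescaling, 2 passed it.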
